A study of Mus musculus with 2 samples.

Results

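The genes described here are 9 secreted growth factors and cytokines that leukocytes release during tissue repair: Areg, Ereg, Hbegf, Igf1, Tgfb1, Pdgfa, Pdgfb, Osm and Gdf15. They were taken by gene symbol, with earlier results of these data known, and all 9 were among the 31253 genes of the deposited tables. The study treated mice carrying intrahepatic cholangiocarcinoma (iCCA), a cancer of bile duct type, and profiled the CD45+ leukocytes of the tumour-bearing livers by single-cell RNA sequencing. The NAV group were C57BL/6 mice given NAV2729 (NAV), a small molecule known as an inhibitor of the small GTPase Arf6, at 30 mg/kg every other day for 7 days. The MOCK group were C57BL/6 mice of the same model left without NAV2729. In both groups the tumours came from hydrodynamic injection of transposon vectors for Myr-AKT and YAPS127A, begun 7 days before the treatment, so every animal carried both transgenes, and the sex and age of the mice were not given in the sources used here. Each group was 1 BD Rhapsody library of pooled tumours, 6 per group in the design text and 3 in the protocol. With 1 library per group there was no replicate check and no test; intervals below are 95% and cover counting error only.

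Epidermal growth factor (EGF) family ligands such as amphiregulin, epiregulin and heparin-binding EGF are made as membrane proteins and are cut loose by ADAM proteases before they bind EGF-family receptors on epithelial cells, hepatocytes and stroma. In liver, macrophages and other leukocytes are known sources of insulin-like growth factor 1, of transforming growth factor beta 1, which is secreted in a latent form, and of platelet-derived growth factors (PDGFs), which drive hepatic stellate cells. Oncostatin M signals through gp130 and STAT3 in hepatocytes and stroma, and growth differentiation factor 15 is a stress-induced hormone whose receptor lies in the brainstem.

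After filtering and removal of doublets, 9923 NAV cells and 10284 MOCK cells were analysed, with medians of 2025 and 3758 UMIs (unique molecular identifiers, counted transcripts). The libraries shared 5 barcodes. A UMI of Ptprc, the CD45 gene, was found in 79.7% of NAV cells and 83.5% of MOCK cells. The comparisons below cover 15 classes of at least 50 cells in each library, 13 named from marker genes and written with the ending "-like", and 2 unnamed and called here by their leading genes, Thbs1 Mmp19 and Cxcl9 Ifit2. A further T-like group of 112 NAV and 151 MOCK cells also passed 50 cells, but it pools T-like sub-clusters that each had a marker of another class among their leading genes, so it was set aside and is in none of the counts over 15 classes. The makeup differed: neutrophil-like cells were 33.1% of NAV cells and 19.9% of MOCK cells, macrophage-like cells 14.1% and 23.2%, and Kupffer-like cells (resident liver macrophages) 2.78% and 9.84%. All 10 Kupffer and all 10 neutrophil markers were at least 2-fold above the other cells in both libraries, and 12 of 12 macrophage markers in NAV and 7 of 12 in MOCK. The same markers had named the classes, so these counts describe the classes and are not an independent check. Markers of hepatocytes summed to 12.03 CPM (counts scaled to 1000000 UMIs) in NAV and 5.74 CPM in MOCK over all cells, of bile duct or tumour epithelium to 20.8 and 16.0 CPM, of fibroblasts or stellate cells to 6.22 and 10.96 CPM, and of endothelium to 90.4 and 93.3 CPM. Transcripts of the 12 macrophage markers were also found in classes of other lineages, and at lower levels in NAV, for example at 381 CPM in NAV and 2365 CPM in MOCK gd T/T17-like cells. These marker values are given beside some member differences, both where the direction is the same and where it is not. Their part in those differences was not tested.

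Across all cells, Hbegf, Igf1, Pdgfa and Pdgfb were lower in the NAV library, Areg was somewhat higher, and Tgfb1, Osm and Gdf15 differed little. Pdgfb stood at 26.9 CPM in NAV and 92.0 CPM in MOCK, a log2 NAV/MOCK ratio of -1.78 (interval -1.89 to -1.66). Hbegf stood at 20.8 and 53.6 CPM in NAV and MOCK (log2 ratio -1.37, -1.50 to -1.24). Igf1 stood at 63.9 and 150.6 CPM (log2 ratio -1.24, -1.31 to -1.16), and Pdgfa at 57.8 and 112.0 CPM (-0.96, -1.04 to -0.87). Areg stood at 39.4 CPM in NAV and 28.5 CPM in MOCK (0.46, 0.35 to 0.58), a ratio that was 0.20 without the 1% of cells with the most Areg UMIs. Tgfb1 had 88.2 and 78.7 CPM (0.16, 0.09 to 0.24), Osm 402.2 and 443.9 CPM (-0.14, -0.18 to -0.11), and Gdf15 21.6 and 21.5 CPM (0.01, -0.14 to 0.16). Counting as past the fold a log2 ratio of at least 1 or at most -1 with at least 20 UMIs over both libraries, 3 of the 8 members measured were lower in NAV and 0 were higher. Over all genes measured in the whole libraries, 6.01% were past the fold downwards and 5.15% upwards.

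Within the 15 classes, 82 of 135 member-class pairs reached 20 UMIs. Of these, 15 (18.3%) were at least 2-fold lower in NAV, against 6.26% of all gene-class pairs, and 7 (8.54%) were at least 2-fold higher, against 3.18%. The interval of the ratio lay wholly below 0 in 27 pairs, wholly above 0 in 12 and included 0 in 43. The pairs past the fold were not spread evenly: 6 of the 15 lower ones were Pdgfb and 4 of the 7 higher ones were Areg. Subtracting from each ratio the median ratio of the same gene in the other classes gave 11 pairs higher and 9 lower, and with no minimum of UMIs 9 were higher and 27 lower. In the T-like group set aside, 7 members were measured: Areg was higher in NAV, at 106.4 CPM against 31.5 CPM in MOCK (1.75; 3.13% of genes past the fold upwards). Lower in NAV there were Hbegf, at 13.1 CPM against 47.8 CPM in MOCK (-1.87; 6.82% downwards), Igf1, at 36.0 against 107.0 CPM (-1.57), and Pdgfb, at 24.6 against 75.5 CPM (-1.62). Pairs of 1 class come from the same 2 libraries and are not independent. The members were chosen with earlier results of these data known, so their shares are not those of an unselected set.

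**Figure D1:**
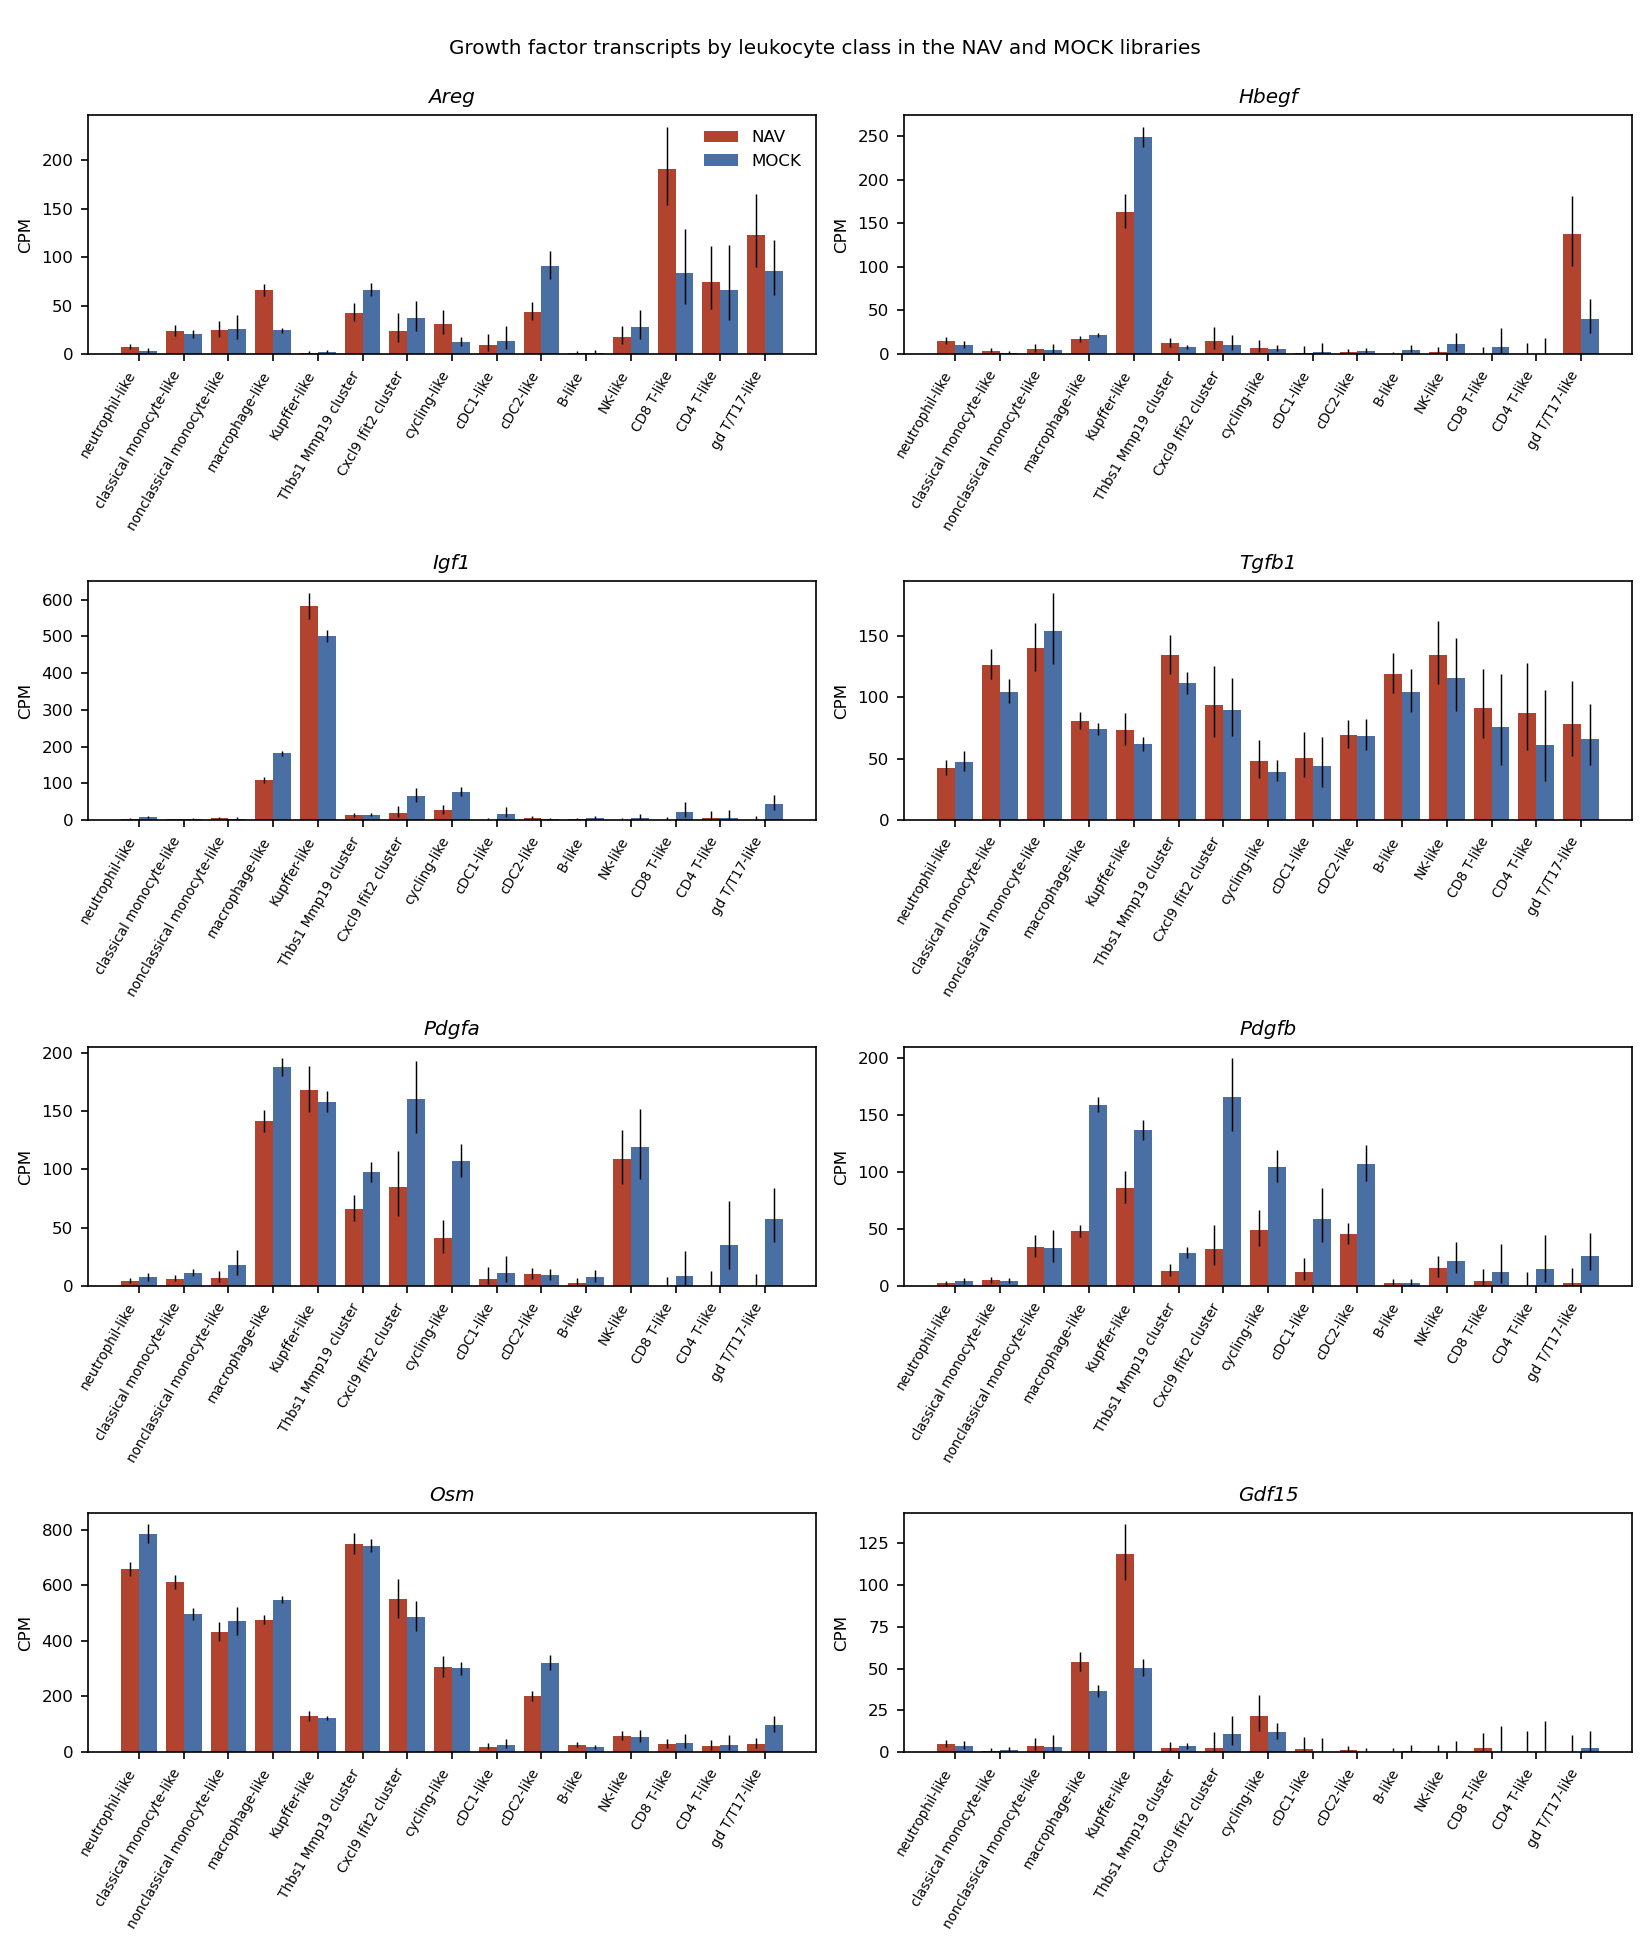
Level of each growth factor gene in 15 leukocyte classes, in CPM of the class total (y axis, linear, own scale per gene), with NAV bars left of MOCK bars and exact 95% Poisson intervals; Ereg, with 9 UMIs in all, is not drawn. Igf1 and Gdf15 stand highest in Kupffer-like cells, Osm in neutrophil-like and Thbs1 Mmp19 cells, and Tgfb1 is spread over all 15 classes.

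The EGF-family ligand Areg encodes amphiregulin, a low-affinity ligand of the EGF receptor made by type 2 innate lymphoid cells (ILC2), regulatory T cells and mast cells among others. The gene lies at chr5:91139599-91148432 on the plus strand (GRCm38). Its promoter is shown because Areg was past the fold in both directions; in the RefSeq window of 250 bases before to 50 after the gene start (chr5:91139349-91139648, plus strand, GRCm38.p6) capitals mark a cAMP response element (TGACGTCA) 61 bases and a TATA box (TATAAA) 31 bases before the start site:
Areg: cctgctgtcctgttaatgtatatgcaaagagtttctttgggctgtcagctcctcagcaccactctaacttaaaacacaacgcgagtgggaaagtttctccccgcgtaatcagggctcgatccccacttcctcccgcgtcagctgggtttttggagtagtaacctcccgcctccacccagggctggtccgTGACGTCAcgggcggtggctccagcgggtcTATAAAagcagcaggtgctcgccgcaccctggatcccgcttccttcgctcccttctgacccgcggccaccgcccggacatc
Searched on both strands, TGACGTCA was in 1.79% and TATAAA in 13.6% of 32851 promoter windows of this length, and the 2 motifs do not overlap here. An AP-1 motif (TGANTCA) was absent from this window and present in 7.81% of all windows. The match is a description of these letters and not of binding.

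Macrophage-like cells gave 38.3% of the NAV Areg UMIs and 25.5% of the MOCK ones, Thbs1 Mmp19 cells 7.69% and 28.4%, and cDC2-like dendritic cells 8.38% and 12.3%. The highest level among named classes was in the few ILC2-like cells, at 619.8 CPM (46 UMIs in 26 cells) in NAV and 1199 CPM (82 UMIs in 21 cells) in MOCK, below the minimum of 50 cells for a comparison. Treg-like cells held 19 UMIs in 27 NAV cells and 1 UMI in 11 MOCK cells. CD8 T-like cells had 191.2 CPM in NAV and 83.7 CPM in MOCK, 92 and 20 UMIs, a log2 ratio of 1.19 (0.48 to 1.97), where 3.54% of all genes were past the fold upwards. The richest single cell held 19 of the 92 NAV and 8 of the 20 MOCK UMIs. The macrophage markers in CD8 T-like cells were lower in NAV, at 106 CPM against 481 CPM in MOCK. Macrophage-like cells had 65.6 CPM in NAV and 24.4 CPM in MOCK (1.43, 1.21 to 1.64; 1.49% of genes past the fold upwards). In the Arg1 Gpnmb cluster of the macrophage-like cells Areg stood at 113.4 CPM in NAV and 46.3 CPM in MOCK (1.29; 2.47% upwards), in the Ms4a7 Tmem119 cluster at 42.5 and 21.5 CPM (0.99), and in the Hspa1a Hspa1b cluster at 5.25 and 9.08 CPM (-0.79, -2.36 to 0.52). The Arg1 cluster was 543 of 1401 NAV and 474 of 2382 MOCK macrophage-like cells, so the class value also carries its share. At a finer clustering an Arg1 Spp1 cluster of 504 NAV and 304 MOCK cells was unnamed, as was an Itga6 Spon1 cluster of 307 and 673 cells. Named macrophage-like there were only an Hspa1a Hspa1b cluster (331 NAV and 733 MOCK cells) and an Fcrls Syngr1 cluster (161 and 328). Areg in these macrophage-like cells, a different set from the class above, had a log2 ratio of -0.51. With the libraries clustered apart the macrophage-like ratio was 0.82.

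In cDC2-like cells, which present antigen to CD4 T cells, Areg was lower in NAV, at 43.6 CPM against 90.9 CPM in MOCK (-1.06, -1.44 to -0.68; 4.60% of genes past the fold downwards), and at -0.82 with the libraries clustered apart. Thbs1 Mmp19 cells had 42.4 CPM in NAV and 66.2 CPM in MOCK (-0.64), a ratio of -1.20 without the 1% of cells with the most Areg UMIs. The cycling-like cells, which mix lineages, had 31.1 CPM in NAV and 12.2 CPM in MOCK from 26 UMIs each (1.35, 2.75% upwards). With the libraries clustered apart the ratio was 0.80. Their macrophage markers were lower in NAV, at 5929 CPM against 9577 CPM in MOCK. gd T/T17-like cells had 123.1 and 86.1 CPM in NAV and MOCK (0.52, -0.14 to 1.18) and CD4 T-like cells 73.9 and 65.7 CPM (0.17, -0.88 to 1.28), both with intervals that include 0. Neutrophil-like cells held 31 UMIs in 3286 NAV cells and 9 in 2044 MOCK cells (1.25, 0.14 to 2.50; 13.1% of genes upwards); of these, 19 NAV and 0 MOCK UMIs lay in the Cxcl3 Il23a cluster. The median ratio of all genes in neutrophil-like cells was itself 0.35, and with doublets kept the Areg ratio was -0.64. B-like and Kupffer-like cells were close to empty of Areg, with 1 UMI each in NAV and 1 and 17 UMIs in MOCK. In the order of levels CD8 T-like cells stood first in NAV among classes compared, and cDC2-like cells stood first in MOCK, each with an interval overlapping that of gd T/T17-like cells, the next in line.

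**Figure D2:**
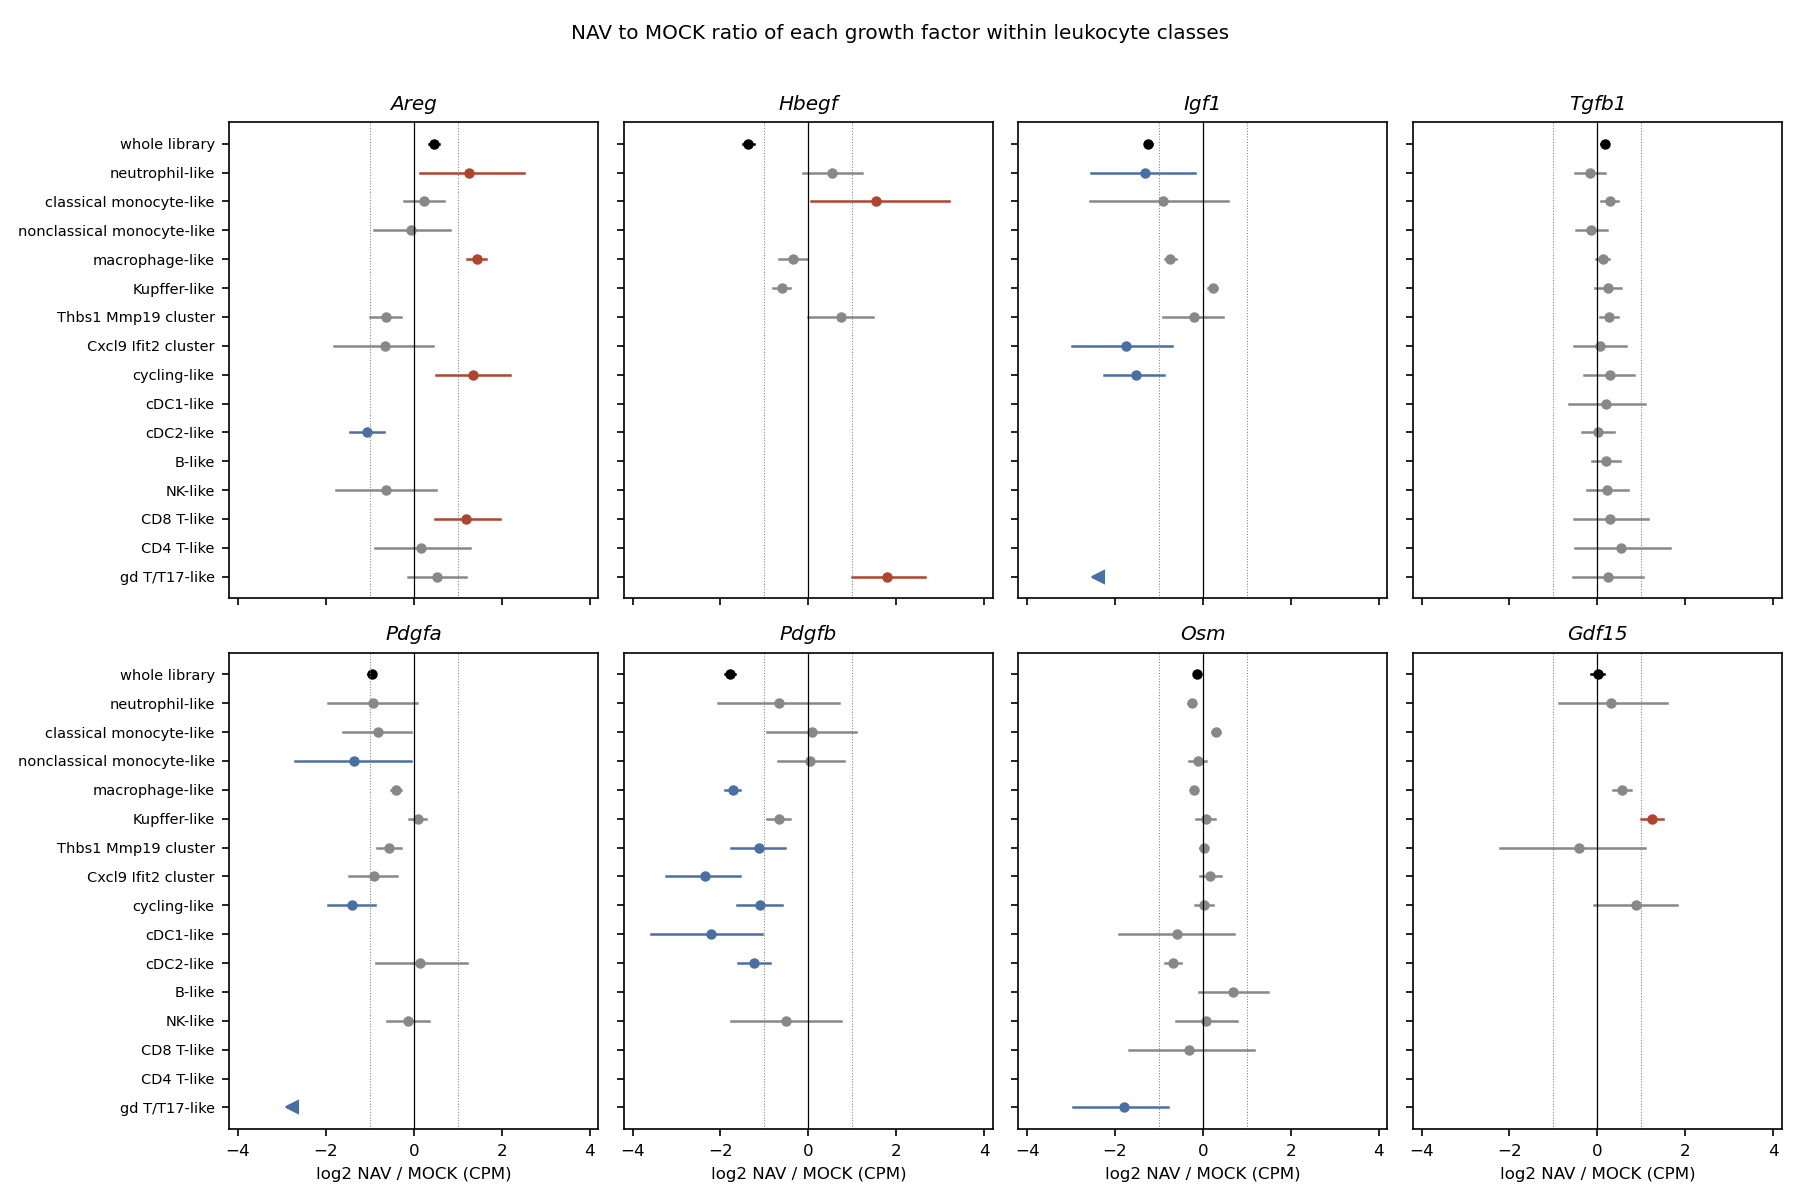
Log2 NAV/MOCK ratio of each growth factor (x axis) in the whole library and in each class with at least 20 UMIs over both libraries; points are ratios, lines exact conditional 95% intervals, dotted lines a ratio of 1 or -1, and triangles bounds where the NAV library had 0 UMIs. Pdgfb lies left of 0 in 9 of its 11 classes, Areg on both sides, and Tgfb1 near 0 throughout.

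Ereg, the neighbour of Areg on chromosome 5 with 45952 bases between them, encodes epiregulin, another EGF receptor ligand. It had 0 UMIs in 9923 NAV cells, which allows a share of up to 0.0302% of cells with a UMI, a limit on captured UMIs and not on cells expressing the gene, and 9 UMIs in MOCK, all of them in 1 cell of the Arg1 Gpnmb cluster. Outside that cell Ereg was not detectable at this depth.

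Hbegf encodes heparin-binding EGF-like growth factor, a ligand of EGFR and ErbB4, and lies on chromosome 18. Kupffer-like cells were its main source, with 163.0 CPM in NAV and 248.9 CPM in MOCK (log2 ratio -0.61, -0.80 to -0.43), and they gave 45.8% of the NAV and 78.8% of the MOCK UMIs. Thinned to 800 UMIs per cell, 12.8% of NAV and 15.5% of MOCK Kupffer-like cells held a UMI of Hbegf, against 0.946% and 1.03% of neutrophil-like cells. In gd T/T17-like cells the difference ran the other way, at 137.1 CPM in NAV and 39.8 CPM in MOCK, 49 and 18 UMIs (1.79, 0.98 to 2.65; 3.33% of genes past the fold upwards); the thinned shares were 9.65% and 3.42%. The macrophage markers in the gd T/T17-like cells were lower in NAV, at 381 CPM against 2365 CPM in MOCK. Classical monocyte-like cells held 14 UMIs in NAV and 6 in MOCK (1.54, 0.07 to 3.20, 1.29% upwards), and 0.58 with the libraries clustered apart. Macrophage-like cells had 17.2 and 21.8 CPM in NAV and MOCK (-0.34, -0.67 to -0.02). Hbegf in the different set of cells named macrophage-like at the finer clustering had a ratio of 0.38. The Cxcl3 Il23a cluster of neutrophil-like cells had 31 UMIs in 1219 NAV cells and 9 in 127 MOCK cells, 22.4 and 60.5 CPM (-1.44, -2.54 to -0.18; 6.63% downwards). No promoter of Hbegf is shown.

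Igf1 encodes insulin-like growth factor 1, which liver macrophages make and which acts on cells with the IGF1 receptor. Nearly all of it came from 2 classes: Kupffer-like cells gave 53.2% of NAV and 56.2% of MOCK UMIs, and macrophage-like cells 39.0% and 35.8%. Kupffer-like cells had 582.0 CPM in NAV and 499.8 CPM in MOCK (0.22, 0.12 to 0.32), and a UMI was found in 83.3% and 85.5% of them, or in 36.6% and 29.2% after thinning. Macrophage-like cells were lower in NAV, at 108.6 CPM against 181.1 CPM in MOCK (-0.74, -0.86 to -0.62). That difference was unequal among their clusters: the Arg1 Gpnmb cluster had 101.9 CPM in NAV and 303.5 CPM in MOCK (-1.58, -1.77 to -1.38; 6.40% of genes past the fold downwards), with thinned shares of 4.07% and 15.2%. The Ms4a7 Tmem119 cluster had 93.7 and 122.0 CPM in NAV and MOCK (-0.38), and the Hspa1a Hspa1b cluster 161.0 and 192.4 CPM (-0.26). In MOCK the Arg1 cluster was thus the highest of the 3 for Igf1, and in NAV the Hspa1a cluster was, with intervals that do not overlap those of the other clusters.

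In the other classes compared Igf1 was lower. The unnamed Zfp791 Lrmda cells of MOCK, 57 cells and under the minimum for a comparison, had 156.8 CPM (75.2 to 288.4) from 10 UMIs. Cycling-like cells had 26.3 CPM in NAV and 75.9 CPM in MOCK (-1.53; 9.06% of genes past the fold downwards), beside 5929 and 9577 CPM of the 12 macrophage markers in the same cells. The Cxcl9 Ifit2 cells had 19.5 and 65.8 CPM in NAV and MOCK (-1.75; 9.22% downwards), beside 7873 and 12299 CPM of macrophage markers. Neutrophil-like cells held 11 UMIs in NAV and 19 in MOCK (-1.33; 4.41% downwards), beside 354 and 529 CPM of macrophage markers. gd T/T17-like cells held 0 UMIs in 117 NAV cells and 20 in 148 MOCK cells, at least 5.26-fold lower in NAV against a floor of 3 counts per class (8.42% downwards); 13 of the 20 lay in 1 cell. The part of macrophage RNA in these 4 differences was not tested.

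**Figure D3:**
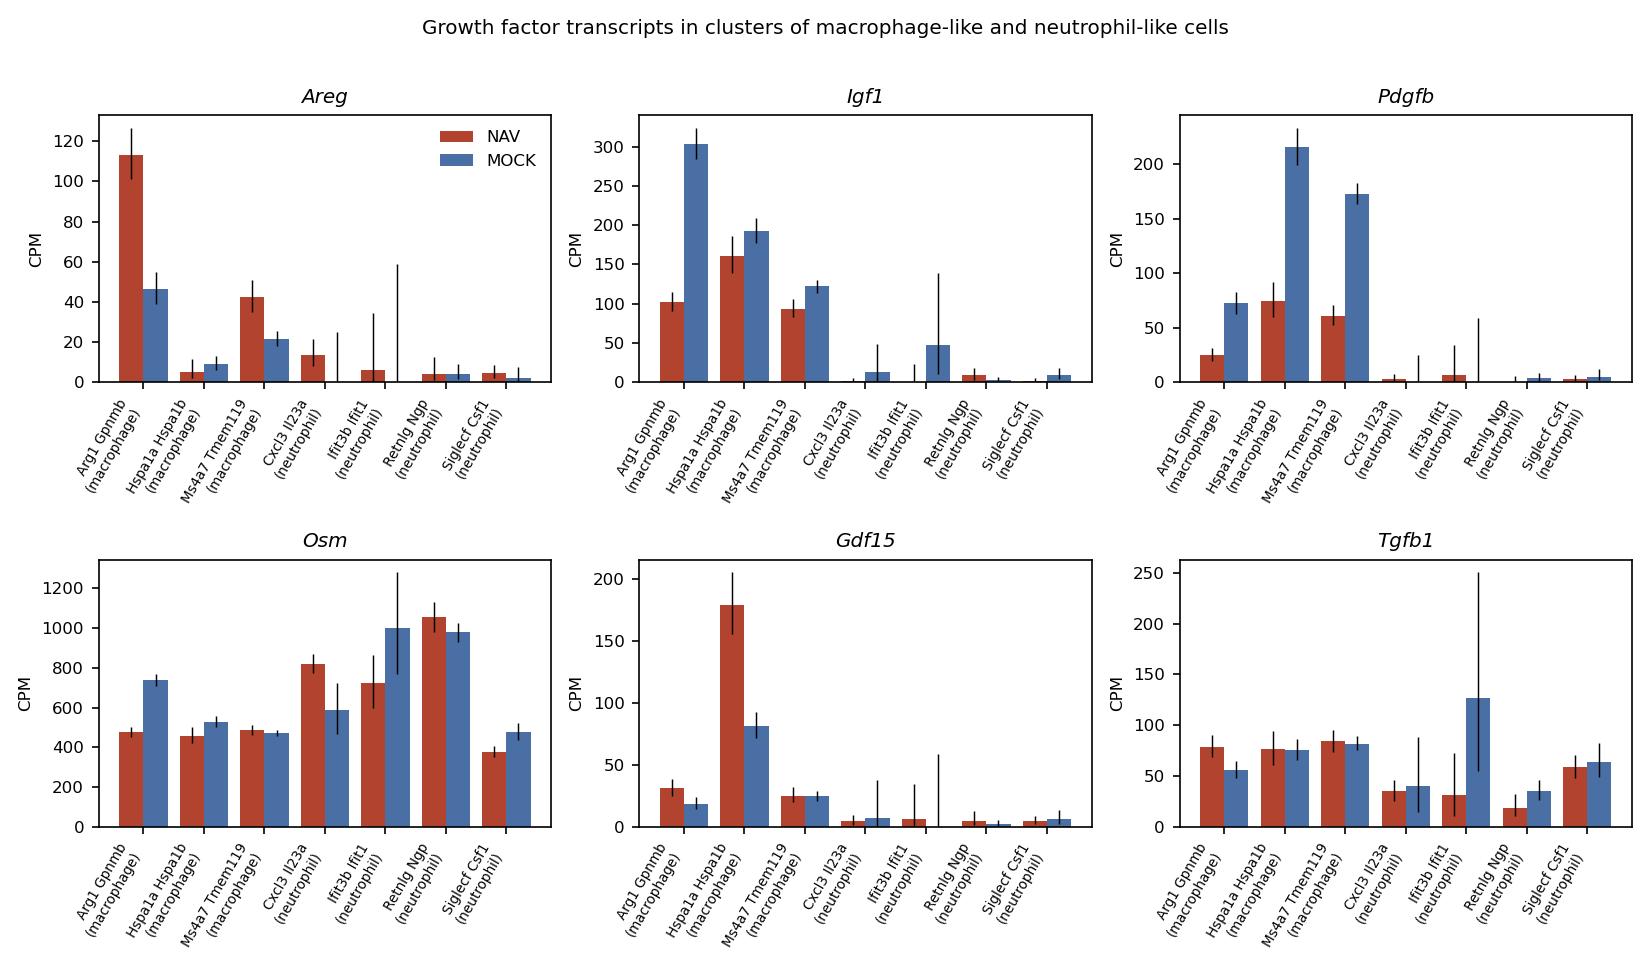
Levels of 6 of the growth factors in CPM (y axis, own linear scale per gene) in the 3 clusters of macrophage-like and 4 clusters of neutrophil-like cells, named by leading genes, with NAV bars left of MOCK bars and exact 95% Poisson intervals. In the Arg1 Gpnmb cluster Areg is at 113.4 CPM in NAV and 46.3 in MOCK while Igf1 is at 101.9 and 303.5, and Pdgfb is lower in NAV in all 3 macrophage-like clusters.

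Tgfb1 encodes transforming growth factor beta 1, which restrains T cells and drives fibrosis. It lies at chr7:25687002-25705077 on the plus strand (GRCm38). Its promoter is set beside that of Areg because Tgfb1 was the member measured in all 15 classes; the RefSeq window at chr7:25686752-25687051 (plus strand, GRCm38.p6) is 77.0% G and C with 30 CpG pairs, against 59.3% and 21 for Areg and medians of 52.7% and 7 over all windows, and holds none of the 3 motifs, so that it has no capitals:
Tgfb1: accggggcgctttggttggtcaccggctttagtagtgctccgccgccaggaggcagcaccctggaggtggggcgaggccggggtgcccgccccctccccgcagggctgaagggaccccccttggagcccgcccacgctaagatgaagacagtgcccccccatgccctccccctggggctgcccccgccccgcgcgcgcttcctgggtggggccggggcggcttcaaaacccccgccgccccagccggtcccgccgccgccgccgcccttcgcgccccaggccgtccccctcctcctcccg
Of the other members, RefSeq windows for Igf1, Pdgfa and Gdf15 were also matched, 5 of 9 members in all.

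All 15 classes passed the minimum for Tgfb1, and 0 of them were past the fold. Levels in these classes ran from 42.3 CPM in neutrophil-like to 140.1 CPM in nonclassical monocyte-like cells in NAV, and from 39.3 CPM in cycling-like to 153.9 CPM in nonclassical monocyte-like cells in MOCK. NK-like cells followed with 134.7 CPM in NAV and 115.5 CPM in MOCK, Thbs1 Mmp19 cells with 134.0 and 111.5 CPM, classical monocyte-like cells with 126.5 and 104.4 CPM, and B-like cells with 118.8 and 104.1 CPM, with overlapping intervals between neighbours in this order. Outside the 15 classes, the unnamed Zfp791 Lrmda cells of MOCK stood higher, at 376.3 CPM (241.1 to 559.9) from 24 UMIs. They were 57 cells in MOCK and 40 in NAV, under the minimum for a comparison. The log2 ratios of the 15 classes ran from -0.17 to 0.53. Only the intervals of classical monocyte-like cells (0.28, 0.08 to 0.47) and Thbs1 Mmp19 cells (0.26, 0.05 to 0.47) lay clear of 0, both higher in NAV. The last 500 transcript bases of Tgfb1 are 62.8% G and C, in the top decile, whose genes had a median whole-library ratio of -0.25; set against that median, the whole-library ratio of Tgfb1 was 0.41.

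Pdgfa and Pdgfb encode the A and B chains of PDGF, which pair as homodimers or heterodimers and act on stellate cells and pericytes through PDGF receptors. Pdgfb was the member lower in NAV in most classes, past the fold in 6 of 11. Macrophage-like cells had 48.2 CPM in NAV and 159.3 CPM in MOCK (-1.72, -1.90 to -1.55; 6.29% of genes past the fold downwards). All 3 of their clusters were lower in NAV: 61.0 CPM in NAV and 172.9 in MOCK in the Ms4a7 Tmem119 cluster (-1.50; 6.77% downwards), 24.8 and 72.2 in the Arg1 Gpnmb cluster (-1.54), and 74.4 and 215.9 in the Hspa1a Hspa1b cluster (-1.54; 6.94%). A UMI was found in 15.9% of NAV and 36.7% of MOCK macrophage-like cells, and after thinning in 3.63% and 10.2%. Kupffer-like cells had 85.9 CPM in NAV and 136.9 CPM in MOCK (-0.67, -0.93 to -0.42). Without the 1% of cells with the most Pdgfb UMIs, the whole-library ratio was -2.02.

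Dendritic and mixed classes were lower in NAV as well. cDC2-like cells had 45.5 CPM of Pdgfb in NAV and 107.1 CPM in MOCK (-1.24, -1.60 to -0.87). cDC1-like cells, which cross-present antigen to CD8 T cells, held 8 UMIs in 108 NAV cells and 27 in 79 MOCK cells (-2.23, -3.57 to -1.05; 6.45% of genes past the fold downwards). The Cxcl9 Ifit2 cells had 32.6 and 165.9 CPM in NAV and MOCK (-2.35, -3.23 to -1.57), the cycling-like cells 49.0 and 104.9 CPM (-1.10), and the Thbs1 Mmp19 cells 13.5 and 29.3 CPM (-1.12; 6.04% downwards). The 12 macrophage markers summed to 1393 CPM in NAV and 1999.6 CPM in MOCK cDC2-like cells, to 697 and 1445 CPM in cDC1-like cells, and to 5450 and 7567 CPM in Thbs1 Mmp19 cells; their part in these differences was not tested. Nonclassical monocyte-like cells, by contrast, had 34.0 CPM in NAV and 33.0 CPM in MOCK (0.04, -0.69 to 0.81). In classical monocyte-like cells 17 NAV and 20 MOCK UMIs gave 0.08 (-0.94 to 1.09), but -2.32 with doublets kept, -1.55 with the libraries clustered apart and -1.06 under a stricter filter on cells, so that no direction was fixed there. B-like cells held 4 UMIs in NAV and 3 in MOCK.

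Pdgfa shared the macrophage and Kupffer classes with Pdgfb but differed less between the libraries there. Macrophage-like cells had 141.1 CPM in NAV and 187.4 CPM in MOCK (-0.41, -0.52 to -0.30), and Kupffer-like cells 168.3 and 158.1 CPM (0.09, -0.10 to 0.28). The Arg1 Gpnmb cluster had 141.5 CPM in NAV and 219.3 CPM in MOCK (-0.63). NK-like cells were a lymphoid source, with 108.7 CPM in NAV and 119.2 CPM in MOCK (-0.13, -0.61 to 0.35), while CD8 T-like cells held 0 UMIs in NAV and 2 in MOCK. Among classes past the fold, cycling-like cells had 40.7 and 107.2 CPM in NAV and MOCK (-1.40, -1.96 to -0.87). Nonclassical monocyte-like cells held 10 UMIs in NAV and 13 in MOCK (-1.37, -2.71 to -0.06, 4.87% of genes downwards). Under a stricter filter on cells the ratio was -0.64. Their macrophage markers stood at 1474 CPM in NAV and 2633 CPM in MOCK. gd T/T17-like cells held 0 UMIs in NAV and 26 in MOCK, at least 6.84-fold lower in NAV against a floor of 3 counts per class, with 11 of the 26 in 1 cell and the macrophage markers at 381 CPM in NAV and 2365 CPM in MOCK. Thbs1 Mmp19 cells had 66.0 and 97.4 CPM (-0.56), and pDC-like cells, under 50 in MOCK, 19 UMIs in 131 NAV cells and 2 in 42 MOCK cells.

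Osm encodes oncostatin M, an IL-6 family cytokine of neutrophils, monocytes and macrophages. Myeloid classes held it throughout: Thbs1 Mmp19 cells had 748.8 CPM in NAV and 741.1 CPM in MOCK (0.01, -0.07 to 0.10), neutrophil-like cells 657.5 and 785.1 CPM (-0.26, -0.34 to -0.17), classical monocyte-like cells 611.2 and 496.7 CPM (0.30, 0.21 to 0.39) and macrophage-like cells 476.2 and 547.3 CPM (-0.20, -0.26 to -0.14). In classical monocyte-like cells the ratio was -0.0049 with the libraries clustered apart. Kupffer-like cells were lower than the other macrophages in both libraries, with 128.3 CPM in NAV and 122.3 CPM in MOCK. Lymphoid classes were lower: B-like cells had 25.7 CPM in NAV and 16.0 CPM in MOCK, NK-like cells 57.9 and 55.0 CPM, and gd T/T17-like cells 28.0 and 97.2 CPM. Among neutrophil-like cells the Retnlg Ngp cluster stood at 1054 CPM in NAV and 978.6 CPM in MOCK, the Cxcl3 Il23a cluster at 818.4 and 585.1 CPM (0.48, 0.17 to 0.82), and the Siglecf Csf1 cluster at 376.3 and 477.8 CPM (-0.34, -0.52 to -0.17). The class value mixes these clusters, which made up different shares: 1219 NAV and 127 MOCK cells were in the Cxcl3 Il23a cluster, and 504 and 1075 in the Retnlg Ngp cluster.

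Osm was also lower in NAV in cDC2-like cells and in a macrophage cluster. cDC2-like cells had 200.5 CPM in NAV and 321.3 CPM in MOCK (-0.68, -0.87 to -0.50). The Arg1 Gpnmb cluster had 474.7 CPM in NAV and 737.2 CPM in MOCK (-0.63, -0.73 to -0.54), with thinned shares of 20.4% and 35.5%, while the Ms4a7 Tmem119 cluster had 485.0 and 471.4 CPM (0.04). Past the fold were gd T/T17-like cells alone among the 14 classes measured, with 10 UMIs in NAV and 44 in MOCK (-1.80, -2.95 to -0.78), or -0.98 with doublets kept. The 12 macrophage markers in these cells stood at 381 CPM in NAV and 2365 CPM in MOCK, and their part in the Osm difference was not tested. The 61 peritoneal-type macrophage-like cells of the MOCK library, a class with 1 cell in NAV, held 1631 CPM.

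Gdf15 encodes growth differentiation factor 15, a distant TGF-beta relative induced by cell stress and by the transcription factors of the integrated stress response. It was found in Kupffer-like cells, at 118.9 CPM in NAV and 50.4 CPM in MOCK (1.24, 0.98 to 1.49; 1.46% of genes past the fold upwards), and in macrophage-like cells, at 53.9 and 36.4 CPM (0.57, 0.37 to 0.77). Macrophage-like cells gave 57.2% of its NAV and 50.5% of its MOCK UMIs, and Kupffer-like cells 32.1% and 39.8%. A UMI was found in 26.4% of NAV and 16.7% of MOCK Kupffer-like cells, and after thinning in 7.69% and 4.03%. Within the macrophage-like cells the Hspa1a Hspa1b cluster, which leads with heat shock genes and holds Gdf15 among its top 10 genes, had 179.4 CPM in NAV and 81.4 CPM in MOCK (1.14, 0.86 to 1.41; 1.36% upwards). The Arg1 Gpnmb cluster had 31.0 and 18.6 CPM (0.73, 0.23 to 1.24) and the Ms4a7 Tmem119 cluster 25.1 and 24.6 CPM (0.03, -0.40 to 0.44).

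Genes of the response to stress and tissue dissociation, chosen after values were seen, were higher in NAV along with Gdf15 in Kupffer-like cells, and in part in other classes. Atf3, a stress-induced transcription factor, stood there at 622.6 CPM in NAV and 240.4 CPM in MOCK (1.37), the heat shock genes Hspa1a at 1509 and 534.2 CPM (1.50) and Hspa1b at 974.5 and 308.1 CPM (1.66), and the immediate early gene Egr1 at 467.8 and 228.2 CPM (1.04). Jun differed less, at 565.5 and 423.7 CPM (0.42). In macrophage-like cells Atf3 was at 367 CPM in NAV and 369.7 CPM in MOCK, Hspa1a at 823.1 and 560.8 CPM (0.55), and Jun (-0.64), Egr1 (-0.37) and Fos (-0.10) were lower in NAV. In the Hspa1a Hspa1b cluster, Hspa1a had a log2 ratio of 0.84, Atf3 0.32, Egr1 -0.16 and Jun -0.50.

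Some of these genes also differed where other members were past the fold. Hspa1a stood at 445.9 CPM in NAV and 78.9 CPM in MOCK cDC1-like cells (2.50), where Pdgfb was lower, and at 380.1 and 145.0 CPM in cDC2-like cells (1.39), where Pdgfb and Areg were lower. Jun had ratios of 0.02 in cDC1-like and 0.03 in cDC2-like cells, with intervals that include 0, and Fos had 0.57 and 0.35. In cycling-like cells, with Areg higher and Igf1, Pdgfa and Pdgfb lower, Hspa1a stood at 712.8 CPM in NAV and 159.7 CPM in MOCK (2.16). There Jun (-0.18), Egr1 (-0.15) and Fos (-0.02) had intervals that include 0. Neutrophil-like cells, with Areg higher and Igf1 lower, had Egr1 at 1075 CPM in NAV and 382.9 CPM in MOCK (1.49) but Hspa1a at 60.5 and 137.4 CPM (-1.18). Within their clusters Egr1 had ratios of 0.11 (Siglecf Csf1), 0.22 (Retnlg Ngp), 0.71 (Ifit3b Ifit1) and 0.74 (Cxcl3 Il23a). The Cxcl3 Il23a cluster, with Egr1 at 2038 CPM in NAV and 1217 CPM in MOCK, was 1219 of 3286 NAV and 127 of 2044 MOCK neutrophil-like cells. The class value of Egr1 thus also carries the share of this cluster. In nonclassical monocyte-like cells Hspa1a had a ratio of 1.38, but Jun (-0.38) and Fos (-0.29) were lower in NAV. In classical monocyte-like cells Hspa1a had 1.19, Jun 0.27 and Fos 0.14. Egr1 had -0.22 in nonclassical and -0.19 in classical monocyte-like cells, with intervals that include 0. Among lymphoid classes the Hspa1a ratio was 1.37 in CD4 T-like, 0.94 in NK-like and -0.50 in B-like cells, with intervals clear of 0. It was -0.14 in CD8 T-like and -0.53 in gd T/T17-like cells, both with intervals that include 0. In these last 2 classes Hspa1b had ratios of -0.76 (-1.13 to -0.39) and 0.87 (0.30 to 1.45), and Fos -0.77 and -0.76. Egr1 (-1.61) and Jun (-0.73) were also lower in NAV gd T/T17-like cells. In the Cxcl9 Ifit2 cells, with Igf1 and Pdgfb lower, Hspa1a had 0.28 and Hspa1b 0.36. Egr1 (-1.07), Fos (-0.64), Jun (-0.58) and Atf3 (-0.39) were lower in NAV there. The part of cell handling in these member differences was not tested.

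Gdf15 is in the top decile of G and C in its last 500 bases, with 56.2%, and its whole-library ratio was 0.26 against that decile's median and -0.77 without the 1% of cells with the most Gdf15 UMIs.

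How far the makeup of the libraries alone moved each gene was computed by holding MOCK class levels fixed and weighting them by the class UMI totals of NAV. For Pdgfb this gave 68.8 CPM, against 26.9 CPM measured in NAV and 92.0 CPM in MOCK: makeup carried a log2 difference of -0.42 and levels within classes -1.36. For Hbegf the order was reversed, with -1.07 from makeup and -0.29 within classes, and for Igf1 it was -0.88 and -0.35. Pdgfa was split about evenly, at -0.53 and -0.42. The whole-library ratio of Gdf15 near 0 was the sum of -0.70 from makeup and 0.71 within classes. Areg had 0.10 from makeup and 0.36 within classes, Tgfb1 0.02 and 0.14, and Osm -0.03 and -0.11. Computed over clusters in place of classes, the within part was -1.26 for Pdgfb, -0.49 for Igf1, -0.42 for Hbegf and 0.79 for Gdf15.

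**Figure D4:**
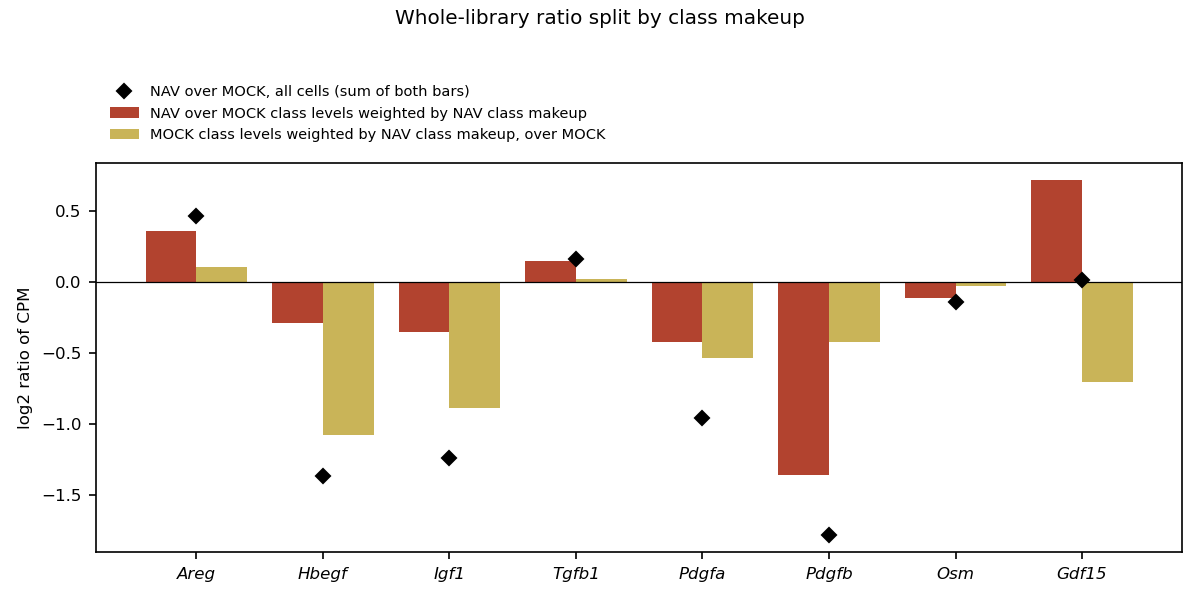
Whole-library log2 NAV/MOCK ratio of CPM (y axis) of each growth factor (diamonds) split into the part within classes (left bars) and the part from class makeup (right bars). The bars of Gdf15 cancel, those of Hbegf and Igf1 are longest for makeup, and that of Pdgfb is longest within classes.

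Other genes of these pathways were read from 12 lists, 107 genes in all, of which 780 gene-class pairs reached 20 UMIs; 71 (9.10%) were at least 2-fold lower and 21 (2.69%) at least 2-fold higher in NAV, against 6.26% and 3.18% of all gene-class pairs. Among sheddases and their regulators, 15 of 116 pairs were lower and 1 higher. Rhbdf2, which encodes the iRhom2 protein that matures the sheddase ADAM17, was past the fold downwards in 7 classes, for example at 27.4 CPM in NAV and 77.0 CPM in MOCK macrophage-like cells (-1.49) and at 38.9 and 110.3 CPM in neutrophil-like cells (-1.50). Adam17 itself stood at 272.8 CPM in NAV and 201.3 CPM in MOCK neutrophil-like cells (0.44), near the median of 0.35 over all genes there. Adam19 was past the fold downwards in 4 classes, among them neutrophil-like cells with 45.3 CPM in NAV and 145.2 CPM in MOCK (-1.68). Pathway gene values of neutrophil-like and macrophage-like cells, here and below, also carry the different shares of their clusters in the libraries. Past the fold downwards were 6.29% of all genes in macrophage-like and 4.41% in neutrophil-like cells. Of the other EGF-family ligands, 5 of 13 pairs were lower and 0 higher, and 4 of the 5 were the neuregulin gene Nrg1. Among classes named here Nrg1 stood highest in classical monocyte-like cells, at 96.9 CPM in NAV and 120.9 CPM in MOCK (-0.32). EGF-family receptors were close to undetected, at 3.02 CPM in NAV and 2.96 CPM in MOCK for the 4 genes summed.

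Each list count below stands against 6.26% of all gene-class pairs lower and 3.18% higher. A count near those shares is not read as a result about the list. In the IGF axis, 7 of 69 pairs were lower and 5 higher. Igfbp4, a binding protein that sequesters IGFs, was lower in macrophage-like cells, at 33.3 CPM in NAV and 85.3 CPM in MOCK (-1.36), and in CD4 T-like cells, at 272.1 and 707.7 CPM (-1.38). Igf2r, a receptor that clears IGF2 and carries lysosomal enzymes, was higher in macrophage-like cells, at 38.7 CPM in NAV and 16.0 CPM in MOCK (1.27). Of the TGF-beta ligands and genes of latency and activation, 10 of 77 pairs were lower and 0 higher. Thbs1, whose product thrombospondin 1 can activate latent TGF-beta, stood at 7830.2 CPM in NAV and 11284 CPM in MOCK classical monocyte-like cells (-0.53) and at 2530.0 and 6274 CPM in nonclassical monocyte-like cells (-1.31), but was higher in macrophage-like cells, at 5031 and 3618 CPM (0.48). TGF-beta target genes had 4 of 106 pairs lower and 3 higher; Itgae, the gene of the CD103 integrin chain, was at 54.0 CPM in NAV and 251.0 CPM in MOCK CD8 T-like cells (-2.22). TGF-beta receptors and Smads had 4 of 91 pairs lower and 2 higher, and the PDGF axis 0 of 16 lower and 1 higher. In macrophage-like cells 6.29% of all genes were past the fold downwards and 1.49% upwards. Downwards it was 5.31% in CD4 T-like, 5.26% in CD8 T-like and 4.87% in nonclassical monocyte-like cells.

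The IL-6 family had 7 of 62 pairs lower and 0 higher, against 6.26% and 3.18% of all gene-class pairs, the shares for each list below as well. Il6 stood at 25.3 CPM in NAV and 65.6 CPM in MOCK Kupffer-like cells (-1.38) and at 4.05 and 8.37 CPM in macrophage-like cells (-1.05). STAT3 target genes had 1 of 83 pairs lower and 0 higher. In the list of the GDF15 receptor and the integrated stress response, 14 of 66 pairs were lower and 3 higher. Ppp1r15a, which encodes the phosphatase subunit GADD34 that ends that response, was past the fold downwards in 8 classes, with 62.8 CPM in NAV and 171.8 CPM in MOCK macrophage-like cells (-1.45), and Ddit3, the gene of the transcription factor CHOP, stood at 5.69 and 11.1 CPM there (-0.96). In Kupffer-like cells Ppp1r15a stood at 114.7 CPM in NAV and 210.8 CPM in MOCK (-0.88), and Ddit3 at 11.2 and 10.05 CPM (0.15). Other repair growth factors had 6 of 78 pairs higher and 4 lower, among them Spp1, the gene of osteopontin, at 2337 CPM in NAV and 651.5 CPM in MOCK macrophage-like cells (1.84). Spp1 is a leading gene of the Arg1 Gpnmb cluster. That cluster was 543 of 1401 NAV and 474 of 2382 MOCK macrophage-like cells, so the class value also carries its share. Vegfa, an angiogenic factor, was at 905.0 CPM in NAV and 683.3 CPM in MOCK macrophage-like cells (0.41). In macrophage-like cells 6.29% of all genes were past the fold downwards and 1.49% upwards, and in Kupffer-like cells 7.4% downwards.

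The genes whose levels ran most like each member over 34 points (17 classes in each library, log2 of CPM plus 1) were found by Pearson correlation among 11683 genes, as a description; the points share their libraries and depth. Osm ran most like Fcgr3 (r = 0.92) and Gda (0.92), Igf1 like Vcam1 (0.91) and Fblim1 (0.89), and Gdf15 like Lilra5 (0.86) and Pf4 (0.85). Pdgfa ran most like Mertk (0.84) and Itga9 (0.83), and Pdgfb like the complement genes C1qb and C1qa (0.82 each). Weaker likeness was found for Tgfb1, with Ggnbp2 (0.79), for Hbegf, with Nr1d1 (0.78), and for Areg, with Atp2b4 (0.76). Ggnbp2, Atp2b4, Mertk, Itga9 and Fblim1 were each highest at 1 point, the unnamed Zfp791 Lrmda cells of MOCK. Tgfb1 was highest there too. That point rests on 57 cells with a median of 862 UMIs. Ereg had too few UMIs for a match to be read.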

How the data were processed

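Leukocytes of the NAV and MOCK pools were profiled as 1 library each, and the deposited files hold raw UMI counts per gene and barcode. The submitters' processing notes name fastp, STARsolo 2.7.10a, Cell Ranger and mm10 without their roles; per the labels, cells were sorted on CD45. Totals were 31454031 UMIs in 10465 NAV barcodes and 45976676 UMIs in 10863 MOCK barcodes.

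Barcodes with at least 500 UMIs, at least 200 genes and at most 20% mitochondrial UMIs were kept. Doublets were removed by Scrublet, as cells with a score over 0.25 or in clusters with a median score over 0.1, thresholds set after the scores were seen; 518 NAV and 486 MOCK cells were removed. Both libraries were clustered together in scanpy 1.11.5 (2000 variable genes without the 9 members, 30 components, 15 neighbours, Leiden resolution 1). A cluster was named from markers, and otherwise called by its leading genes. Counts were summed per class and library and given as CPM with exact Poisson intervals; ratios have exact conditional intervals, and shares of cells were also computed after thinning to 800 UMIs, which left out 489 NAV and 353 MOCK cells. Because the files held 1 library per group, no test across samples was made. Recovery of known changes was tested on simulated Poisson counts from the macrophage-like profile. These had no added spread between libraries or cells, so the check cannot speak to error between replicates.

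Members and lists were chosen with earlier results of these data known. Named were all 9 members, and of each pathway list, in the 2 classes where its summed level was highest, genes among the 3 of the highest level, and any gene past the fold in at least 3 classes; for likeness, the 2 genes of highest r per member; stress genes were added after values were seen. Alternatives were other cell filters, doublets kept, other clusterings and scalings, and removal of the richest cells.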

Additional observations from a re-analysis of the deposited data

How the results depend on the processing

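No paired analysis was possible because each group is 1 library, and no replicate could be left out. With 1 library per group, the intervals cover counting error only, and treatment, pool and library cannot be told apart. Of 135 member-class pairs, 82 reached 20 UMIs; depth and low expression were not separated for the others.

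Whole-library log2 NAV/MOCK ratios kept their sign under the alternatives run, except that of Gdf15. Giving each cell equal weight, they were 0.23 for Areg, -1.02 for Hbegf, -1.46 for Igf1, 0.032 for Tgfb1, -1.17 for Pdgfa and -0.29 for Gdf15. Without the 1% of cells with the most UMIs of the gene they were 0.20 for Areg, -2.0 for Hbegf, -1.81 for Igf1, -1.24 for Pdgfa, -2.02 for Pdgfb, -0.18 for Osm and -0.77 for Gdf15. Set against the median of genes of like GC content they were -1.35 for Igf1, 0.41 for Tgfb1, -1.04 for Pdgfa, -0.23 for Osm and 0.26 for Gdf15. Areg was at 0.34 with doublets kept, and Osm at -0.20 under median-of-ratios scaling.

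Of the member-class pairs, 11 were higher and 9 lower at least 2-fold when the median ratio of the gene in the other classes was subtracted, and 27 were lower with no minimum of UMIs. Of the pathway pairs, 74 were higher and 133 lower with no minimum, and 9 and 33 at a minimum of 100 UMIs. The subtraction turned Igf1 (0.59) and Pdgfa (0.46) in macrophage-like, Pdgfa (0.30) in Thbs1 Mmp19, Pdgfb (0.44) in Kupffer-like and Gdf15 (-0.027) in macrophage-like cells. It left Pdgfb in macrophage-like cells at -0.84 and Gdf15 in Kupffer-like cells at 0.80. At the finer clustering, where fewer clusters were named macrophage-like, Areg and Hbegf in macrophage-like cells turned to -0.51 and 0.38. Areg in neutrophil-like cells was at -0.64 with doublets kept, and Osm in classical monocyte-like cells at -0.0049 with the libraries clustered apart. The cause of these moves was not tested. Areg in CD8 T-like cells (1.02 to 1.77), Hbegf in gd T/T17-like cells (1.25 to 2.10) and Pdgfb in cDC1-like cells (-2.47 to -1.34) stayed past the fold under each alternative that gave a value.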
